A study of Drosophila melanogaster with 9 samples.

Results

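The comparison described here is between fasted and sated central brains of male flies, 6 of the 9 samples of the series, 3 in each group. Fasted flies were kept without food, on water, for 20 h. Sated flies had fed normally, and were only held without food for 1 h before dissection. The remaining 3 samples, not part of the comparison, are from refed flies given 400 mM D-glucose for 2 h. All flies were of the strain w1118CS and 7 days old, the sample names of all groups start with CD, the study's abbreviation for its control diet, and each sample pooled 10 brains, so that a sample is not 1 fly. Total RNA depleted of ribosomal RNA was sequenced, and a gene's level is given as CPM, the counts on its own strand scaled to library size. The samples were chosen by their labels alone, and the comparison is described over all genes tested.

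A fly without food first loses the sugar and glycogen it stores, then draws on fat and protein. Trehalose, the main sugar of insect blood, is taken up by glia and cut into glucose, and insulin-like peptides made in the brain signal the fed state through 1 receptor. When that signal and the TOR kinase are low, cells make less new protein and turn on genes for the breakdown of stored fuel. Transcript levels in whole brains add up neurons, glia and whatever tissue stays attached, and fewer cells of a type cannot be told apart from less RNA per cell.

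The libraries held between 4957138 and 7890221 counts on genes in fasted brains, and between 5869311 and 7897838 in sated brains. Counts of replicates differed beyond sampling error, with a chi-square of 2.96 to 7.90 per degree of freedom between pairs of a group. In 3 libraries many gene counts lay on the opposite strand, 24.6% in fasted 1, 28.5% in fasted 2 and 20.6% in sated 2, against 9.59% to 11.1% in the other 3. For the genes that passed the test, opposite-strand counts were between 0.107 and 0.377 of the own-strand counts, with a median of 0.145 beside 0.138 for all genes. Defining genes of neurons and glia were high in each sample, with 837 to 870.2 CPM in fasted and 823 to 879 CPM in sated brains for the neuronal gene elav and 233 to 241 CPM in fasted and 233 to 263 CPM in sated brains for the glial gene repo. Fasted 2 stood apart in muscle genes, whose summed level was 1444 CPM in it and 318 to 469 CPM in the other 5 samples.

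Few transcripts passed the test between fasted and sated brains. With edgeR's quasi-likelihood test and a Benjamini-Hochberg adjusted p under 0.05, 24 of 8957 transcripts passed (0.268%). Of these, 20 rose in fasted brains (0.223% of those tested) and 4 fell (0.0447%). Among the genes that rose were Treh of trehalose breakdown, InR and REPTOR of insulin and TOR signalling, aay, Shmt and Sardh of serine and glycine metabolism, Gart of purine synthesis, Bcat of amino acid breakdown, bmm of fat breakdown, LTV1 and Non1 of ribosome assembly, and Cyp28d1 and Irc of detoxification. The others were the transporter genes CG7888 and Picot, the succinate dehydrogenase assembly gene Sirup, Sodh1, CG3376, CG9119 and atk. Those that fell were Hr38, MFS9, CG13607 and Hex-A. For 9 of the 24 the fold was over 2 and for 11 it was under 1.5. Their median level was 65.6 CPM, against 21.3 CPM for all transcripts tested, so that most passing genes were well expressed. The median log2 fold change of all transcripts was 0.00066, and 4497 of 8957 were above 0.

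Samples of the 2 groups did not overlap for many more transcripts than passed. The 3 fasted samples lay above the 3 sated ones for 641 transcripts (7.16%) and below them for 705 (7.87%), and 871 transcripts had p under 0.05 before adjustment, 419 higher and 452 lower in fasted brains. The excess of increases among the 24 was not seen with every setting. DESeq2 called 112 of the 7625 transcripts to which it gave an adjusted p, 59 higher and 53 lower in fasted brains. These held 23 of the 24, with no adjusted p for Sardh. DESeq2 counts given for the lists below stand beside this share, which is larger than that of edgeR. In edgeR, 37 were higher and 35 lower with the replicate number as a block, 35 were higher and 30 lower with the opposite-strand share as covariate, and 66 were higher and 138 lower for sated 1 and 3 against fasted 3.

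Many of the calls did not hold with 1 library left out. Such a run also has fewer samples, so a lost call need not mean that 1 library carried it. Without fasted 1 only 6 transcripts passed, and without sated 1 only 5, against 10 without sated 3, 14 without sated 2, 22 without fasted 2 and 30 without fasted 3. Treh, InR, Hr38 and Cyp28d1 passed with any 1 library left out. Of the 24, Sirup and CG3376 passed in all but the run without sated 1, and Gart also failed without fasted 1. MFS9, CG7888 and Picot failed without fasted 1, sated 1 or sated 3, and CG13607, aay and Bcat also without sated 2. Among the rest, LTV1, Non1, CG9119 and Irc passed only without fasted 3, Shmt, atk and REPTOR only without fasted 2, and Sodh1 only without fasted 3 or sated 1. The genes bmm, Sardh and Hex-A passed in none of these 6 runs. All 24 kept their direction in each of the 6. The highest adjusted p with 1 library left out follows each gene's own test.

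**Figure D1:**
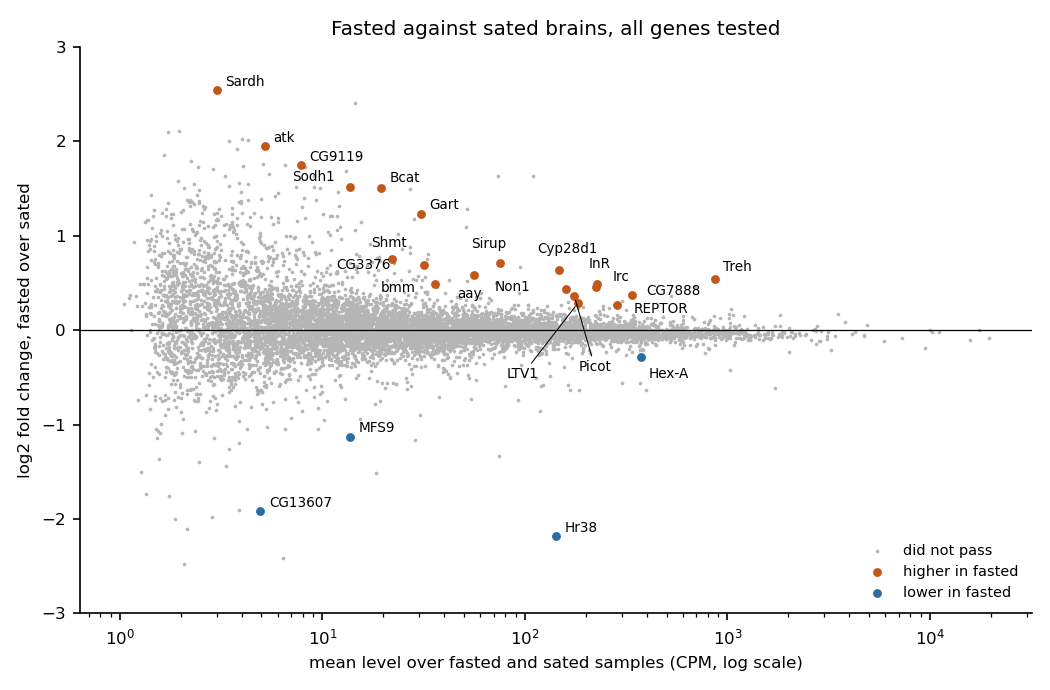
Log2 fold change of fasted over sated brains against the mean level of each of the 8957 transcripts tested (CPM, log axis), with the 20 that rose in fasted brains and the 4 that fell in colour and named. Genes with low levels passed only at large folds, as Sardh with 2.54, while well expressed genes passed at folds as small as that of REPTOR, 0.27.

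**Figure D2:**
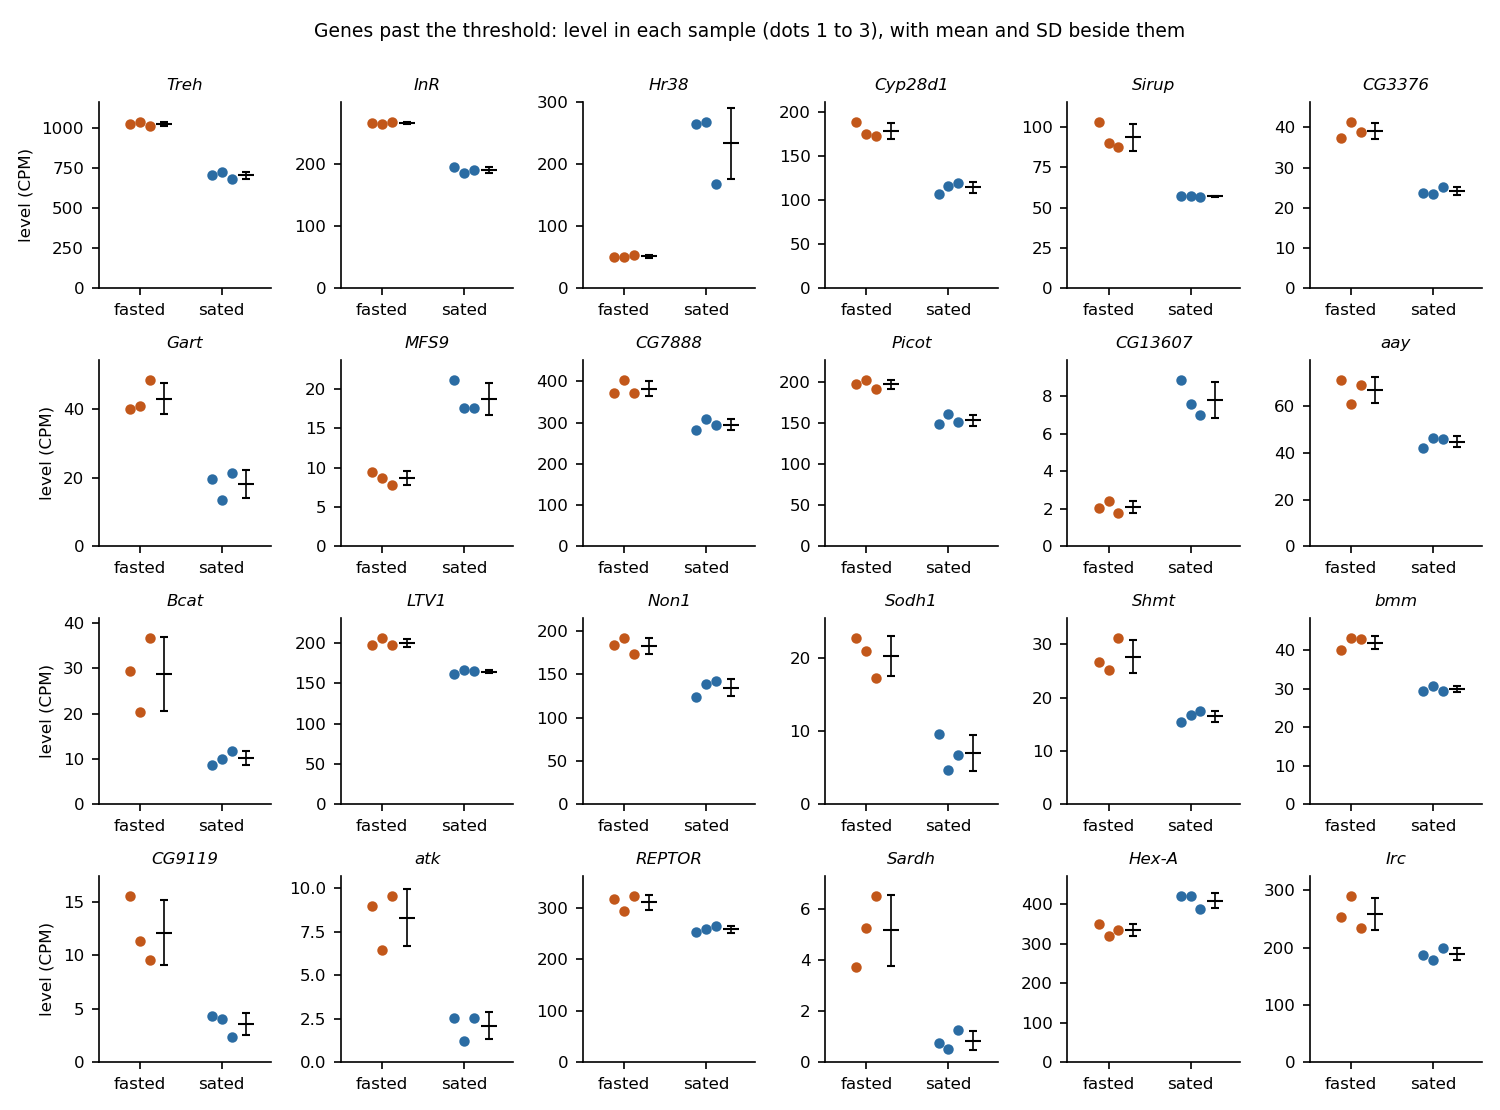
Level in CPM of the 24 transcripts that passed, in each fasted (left) and sated (right) sample, ordered by p, with each axis starting at 0. Bars are the group mean and SD (n = 3 each), and the 2 groups overlap for none of the 24.

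In sugar metabolism, trehalase rose and a hexokinase fell. Treh encodes trehalase, the enzyme that cuts trehalose into glucose, and had 1028, 1038 and 1014 CPM in fasted brains, against 710.3, 724 and 684 CPM in sated brains. The 3 samples of each group lay within a narrow band and the bands were far apart (log2 fold change 0.54, SE 0.034, edgeR adjusted p = 0.000222; at most 0.00899 with 1 library left out). Hex-A encodes a hexokinase, which phosphorylates glucose in the first step of glycolysis (chrX:9585675-9589813, plus strand), and had 350.5, 320.4 and 335 CPM in fasted brains, against 420.2, 420.0 and 388 CPM in sated brains. It fell, by much less than Treh rose (log2 fold change -0.28, SE 0.046, edgeR adjusted p = 0.0412; up to 0.31). Of the 23 genes tested in the list for trehalose and glucose breakdown, 1 rose (0.223% of all transcripts) and 1 fell (0.0447%). Of the 23, 5 lay above (7.16%) and 4 below (7.87%) the sated samples, and the median log2 fold change was 0.05.

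Other genes of the list did not pass. Gapdh2, a glycolytic dehydrogenase, had 363, 379 and 376 CPM in fasted brains, against 420.4, 418 and 402 CPM in sated brains (log2 fold change -0.15, edgeR adjusted p = 0.155). Pgd, an enzyme of the pentose phosphate pathway, had 13.2, 16.5 and 12.96 CPM in fasted brains, against 9.59, 9.67 and 8.77 CPM in sated brains (log2 fold change 0.60, edgeR adjusted p = 0.17), and fbp, the fructose-bisphosphatase of gluconeogenesis, had 4.66, 4.23 and 3.81 CPM in fasted brains, against 2.55, 1.41 and 1.65 CPM in sated brains (log2 fold change 1.16, edgeR adjusted p = 0.261). Fasted samples were all lower than sated ones for Gapdh2 and all higher for Pgd and fbp. Outside the list, 1 more gene of sugar use rose: Sodh1, a sorbitol dehydrogenase (chr3R:7052335-7054541, plus strand), with 22.8, 20.9 and 17.3 CPM in fasted brains, against 9.59, 4.75 and 6.73 CPM in sated brains. The lowest fasted sample was well above the highest sated one (log2 fold change 1.51, SE 0.22, edgeR adjusted p = 0.025; up to 0.169). Its relative Sodh2 had 18.5, 17.9 and 18.3 CPM in fasted brains, against 10.6, 13.01 and 10.5 CPM in sated brains and did not pass (log2 fold change 0.69, edgeR adjusted p = 0.0699). Galk, the galactokinase, had 41.03, 30.8 and 34.4 CPM in fasted brains, against 25.9, 22.9 and 22.6 CPM in sated brains (log2 fold change 0.57, edgeR adjusted p = 0.0912).

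In insulin and TOR signalling, the receptor gene rose. InR, the insulin receptor, had 266, 264 and 267 CPM in fasted brains, against 194, 184 and 189.8 CPM in sated brains. Its 3 fasted samples were almost equal and all were above the sated ones (log2 fold change 0.49, SE 0.036, edgeR adjusted p = 0.000498; at most 0.0141). REPTOR encodes a transcription factor that TOR holds back when food is plentiful (chr3R:24557368-24582864, minus strand), and had 316, 294 and 322 CPM in fasted brains, against 252, 258 and 265 CPM in sated brains. It rose by a small fold, with no overlap between groups (log2 fold change 0.27, SE 0.042, edgeR adjusted p = 0.0382; up to 0.285). REPTOR was placed in the list of transcription factors instead of the list for insulin and TOR signalling. Among the 31 genes tested in the latter, InR was the 1 that passed (0.268% of all transcripts). Of the 31, 3 lay above (7.16% of all transcripts) and 3 below (7.87%) the sated samples, with a median of 0.0041.

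The other insulin pathway genes with separate groups did not pass. Ilp5 encodes an insulin-like peptide of the brain's insulin-producing cells, and had 17.2, 16.7 and 19.8 CPM in fasted brains, against 26.2, 29.2 and 24.5 CPM in sated brains (log2 fold change -0.56, edgeR adjusted p = 0.0825). The fasted samples were all lower, whereas Ilp2 and Ilp3, peptides of the same cells, overlapped between groups, with log2 fold changes of 0.013 and 0.16 (edgeR adjusted p = 0.971 and edgeR adjusted p = 0.59). Thor, the 4E-BP that holds back translation when insulin and TOR signals are low, had 6.34, 8.06 and 5.34 CPM in fasted brains, against 3.598, 2.81 and 3.81 CPM in sated brains (log2 fold change 0.92, edgeR adjusted p = 0.244). Its fasted samples were all higher. For foxo, which encodes a transcription factor that insulin signalling inhibits, levels were 36.4, 37.5 and 36.2 CPM in fasted brains, against 36.7, 34.98 and 37.1 CPM in sated brains, with no separation.

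Hr38 had the largest decrease among the genes that passed. It encodes a nuclear receptor of the NR4A family, which neuronal activity induces in fly brains (chr2L:20683462-20714588, minus strand), and had 49.8, 50.8 and 53.1 CPM in fasted brains, against 265, 268 and 168 CPM in sated brains. The fasted samples were nearly equal, and sated 3 was lower than the other sated samples but far above the fasted ones (log2 fold change -2.18, SE 0.17, edgeR adjusted p = 0.000498; at most 0.0141). The next genes of the list of fed-state and activity-regulated transcription factors did not pass with edgeR. The gene sr encodes an Egr-type zinc finger protein and had 91.02, 77.3 and 84.6 CPM in fasted brains, against 174, 176 and 112 CPM in sated brains. Sated 3 was again the lowest of its group, and above all fasted samples (log2 fold change -0.86, edgeR adjusted p = 0.066). For cbt, a zinc finger gene that sugar feeding induces, levels were 42.3, 42.5 and 45.2 CPM in fasted brains, against 62.7, 66.6 and 53.1 CPM in sated brains (log2 fold change -0.48, edgeR adjusted p = 0.0775).

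The sex determination genes were also lower in each fasted sample without passing. Levels of dsx were 33.8, 31.02 and 40.3 CPM in fasted brains, against 50.2, 47.99 and 51.2 CPM in sated brains (log2 fold change -0.50, edgeR adjusted p = 0.0825), and those of fru were 339, 345 and 371 CPM in fasted brains, against 407, 408 and 398 CPM in sated brains (log2 fold change -0.20, edgeR adjusted p = 0.099). Of 24 genes tested in the list, 1 rose (REPTOR) and 1 fell (Hr38), beside 0.223% and 0.0447% of all transcripts. Of the 24, 4 lay above (7.16% of all transcripts) and 6 below (7.87%) the sated samples, and the median was 0.013. DESeq2 called 1 higher and 5 lower, beside 59 higher and 53 lower of 7625 over all transcripts. The 5 lower ones were Hr38, sr, cbt, dsx and fru. The study's own text names Hr38, cbt, fru and dsx from these samples, so their direction here is not independent evidence.

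The list with the most genes that rose was that for the synthesis and use of serine and glycine, which supplies 1-carbon units to purines and methyl groups. It was written with earlier results of these data known, so its place among the lists is not independent of them. Of 17 genes in the list, 14 could be tested. The 3 genes aay, Shmt and Sardh rose (0.223% of all transcripts) and none fell. Of the 14, 9 lay above the sated samples (7.16%) and none below (7.87%), and all 14 had a log2 fold change above 0. Their median was 0.57, beside 0.00066 for all transcripts, and samples of a group spread by 0.11 around it (SD of the members' median). DESeq2 called 4 genes of the list, all higher, beside 59 higher of 7625 over all transcripts.

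The final enzyme of serine synthesis, phosphoserine phosphatase, is encoded by aay (chr3L:9423253-9424781, plus strand), which had 71.2, 60.8 and 69.1 CPM in fasted brains, against 42.1, 46.4 and 45.99 CPM in sated brains. All fasted samples were above all sated ones (log2 fold change 0.58, SE 0.079, edgeR adjusted p = 0.0201; up to 0.171). The 2 enzymes before it, 3-phosphoglycerate dehydrogenase (CG6287) and phosphoserine aminotransferase (CG11899), did not pass. CG6287 had 63.04, 60.2 and 63.8 CPM in fasted brains, against 57.7, 46.6 and 57.4 CPM in sated brains (log2 fold change 0.21, edgeR adjusted p = 0.483) and CG11899 had 6.71, 5.84 and 4.83 CPM in fasted brains, against 4.65, 4.22 and 4.19 CPM in sated brains (log2 fold change 0.40, edgeR adjusted p = 0.622), with small differences and no overlap.

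Shmt turns serine into glycine and loads a 1-carbon unit onto folate (chrX:5913067-5916797, minus strand), and had 26.7, 25.2 and 31.1 CPM in fasted brains, against 15.4, 16.7 and 17.4 CPM in sated brains. It rose by a fold of 1.68 (log2 fold change 0.75, SE 0.11, edgeR adjusted p = 0.025; up to 0.187). Sardh, the sarcosine dehydrogenase that returns glycine from sarcosine, had 3.73, 5.24 and 6.48 CPM in fasted brains, against 0.7496, 0.527 and 1.27 CPM in sated brains. Its fold was the largest increase of all that passed, at a low level with few counts behind it (log2 fold change 2.54, SE 0.40, edgeR adjusted p = 0.0411; up to 0.31). Gnmt, the methyltransferase that makes sarcosine, had 2.05, 2.42 and 4.07 CPM in fasted brains, against 0.2998, 0 and 1.52 CPM in sated brains (log2 fold change 2.10, edgeR adjusted p = 0.406). Sated 2 was at 0 for Gnmt, and the groups did not overlap.

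Of the genes for folate and for glycine breakdown, some had separate groups without passing. The trifunctional folate enzyme pug had 21.3, 15.3 and 20.96 CPM in fasted brains, against 11.1, 11.1 and 11.4 CPM in sated brains (log2 fold change 0.78, edgeR adjusted p = 0.0702). CG3999, the glycine dehydrogenase of the glycine cleavage system, had 9.51, 8.26 and 6.098 CPM in fasted brains, against 1.35, 1.58 and 3.81 CPM in sated brains (log2 fold change 1.76, edgeR adjusted p = 0.117). Nmdmc, the mitochondrial methylenetetrahydrofolate dehydrogenase, had 14.4, 8.26 and 14.2 CPM in fasted brains, against 8.69, 6.15 and 6.22 CPM in sated brains, with fasted 2 inside the sated range (log2 fold change 0.82, edgeR adjusted p = 0.267). At the other end of the pathway, Sam-S, which makes the methyl donor S-adenosylmethionine, had 314, 262 and 308 CPM in fasted brains, against 282, 294 and 294 CPM in sated brains, with overlapping groups (log2 fold change 0.025, edgeR adjusted p = 0.93).

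Purine synthesis, which uses those 1-carbon units, came next in the median of its genes among the metabolic lists. Its list was also written with earlier results of these data known. Of 11 genes, 1 rose (0.223% of all transcripts) and none fell, 7 lay above the sated samples (7.16%) and none below (7.87%), and the median was 0.41, with a spread between samples of 0.10. DESeq2 called 4, all higher, beside 59 higher of 7625 over all transcripts. Gart encodes a protein that carries out several early steps (chr2L:7014623-7023898, minus strand), and had 40.1, 40.9 and 48.5 CPM in fasted brains, against 19.8, 13.5 and 21.3 CPM in sated brains. It rose more than 2-fold, with no overlap (log2 fold change 1.24, SE 0.15, edgeR adjusted p = 0.0125; up to 0.119). Pfas, which acts between the steps of Gart, had 36.2, 26.8 and 41.7 CPM in fasted brains, against 17.99, 18.5 and 20.96 CPM in sated brains and missed the threshold (log2 fold change 0.88, edgeR adjusted p = 0.0556). CG11089, the enzyme of the last steps to IMP, had 34.3, 19.3 and 40.5 CPM in fasted brains, against 16.04, 14.6 and 16.5 CPM in sated brains (log2 fold change 1.02, edgeR adjusted p = 0.117), and Prps, which makes the sugar phosphate the ring is built on, had 171, 154 and 169.7 CPM in fasted brains, against 139, 139 and 135 CPM in sated brains (log2 fold change 0.26, edgeR adjusted p = 0.0774). Fasted 2 was the lowest fasted sample for Pfas, CG11089 and Prps, yet above all sated ones. The study's text names Gart and CG11089 as higher in fasted brains from this series, so their direction here is not independent evidence.

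Other purine genes showed less or none of this order. Prat2, an enzyme of the first step, had 7.46, 6.65 and 5.59 CPM in fasted brains, against 2.399, 1.93 and 5.59 CPM in sated brains (log2 fold change 0.94, edgeR adjusted p = 0.447), its lowest fasted and highest sated sample nearly equal, while its paralogue Prat had 4.48, 4.43 and 3.56 CPM in fasted brains, against 4.65, 5.801 and 3.81 CPM in sated brains, with overlapping groups (log2 fold change -0.19, edgeR adjusted p = 0.852). The genes that turn IMP into GMP and AMP also overlapped. Levels of ras were 87.7, 81.2 and 85.8 CPM in fasted brains, against 78.6, 81.6 and 84.1 CPM in sated brains, those of bur were 73.5, 70.7 and 77.8 CPM in fasted brains, against 79.2, 77.2 and 74.6 CPM in sated brains, and those of Adss were 81.3, 96.5 and 86.1 CPM in fasted brains, against 87.4, 88.2 and 86.1 CPM in sated brains.

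**Figure D3:**
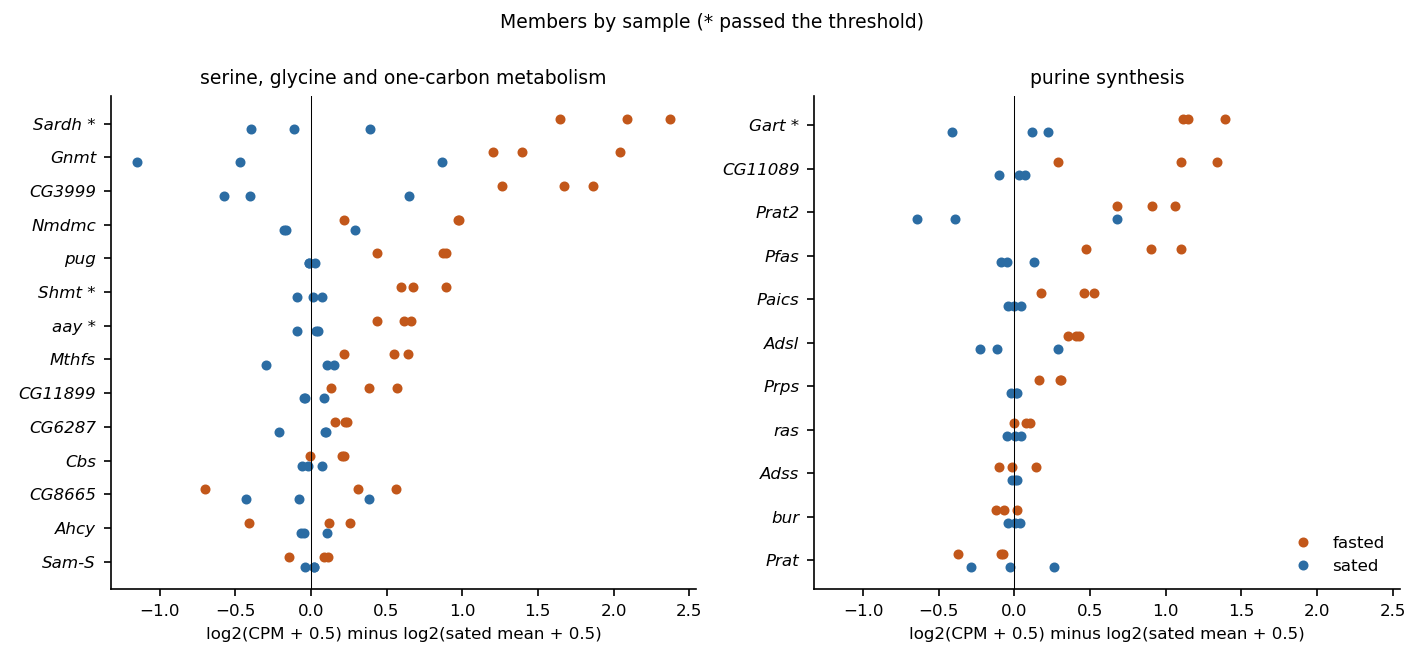
Members of the serine, glycine and 1-carbon list (left) and of the purine list (right) in each fasted and sated sample, as log2(CPM + 0.5) minus the log2 of the sated mean plus 0.5, with genes that passed marked by an asterisk. For 9 of 14 and 7 of 11 genes the 3 fasted samples lie right of all sated ones, and the genes at the foot of each panel overlap.

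Among genes for the breakdown of branched-chain amino acids, the first step rose. Bcat encodes the transaminase that acts on leucine, isoleucine and valine (chrX:13396899-13401224, plus strand), and had 29.3, 20.3 and 36.6 CPM in fasted brains, against 8.69, 10.02 and 11.8 CPM in sated brains. Fasted samples varied widely, with fasted 2 the lowest and still well above all sated ones (log2 fold change 1.51, SE 0.21, edgeR adjusted p = 0.0206; up to 0.181). The study's text names Bcat too, as CG1673, as higher in fasted brains from this series, so this is not independent evidence. The other 8 genes tested did not pass, where only 0.268% of all transcripts did. Of all 9, 8 had a log2 fold change above 0, with a median of 0.20. The dehydrogenase subunit gene of the next step, BckdhB, had 70.9, 70.7 and 61.1 CPM in fasted brains, against 70.6, 64.5 and 69.2 CPM in sated brains, with overlapping groups. Hibch, a later enzyme of valine breakdown, had 20.5, 18.3 and 18.5 CPM in fasted brains, against 15.1, 17.4 and 16.6 CPM in sated brains (log2 fold change 0.22, edgeR adjusted p = 0.555).

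In fat metabolism, the lipase bmm rose. It is the fly's adipose triglyceride lipase, which frees fatty acids from lipid droplets (chr3L:14776496-14786412, minus strand), and had 40.1, 43.1 and 42.8 CPM in fasted brains, against 29.4, 30.8 and 29.5 CPM in sated brains. The spread in each group was small (log2 fold change 0.49, SE 0.073, edgeR adjusted p = 0.027; up to 0.181). The study's text names bmm as higher in fasted brains from this series, so its direction here is not independent evidence. ACC, acetyl-CoA carboxylase, which takes the first step of fatty acid synthesis, had 559, 649 and 559.8 CPM in fasted brains, against 480.3, 432 and 461 CPM in sated brains and missed the threshold (log2 fold change 0.36, edgeR adjusted p = 0.0556). The lipid droplet coat gene Lsd-1 had 4.103, 5.64 and 3.18 CPM in fasted brains, against 8.84, 7.03 and 10.3 CPM in sated brains (log2 fold change -1.05, edgeR adjusted p = 0.166), and Jabba, another droplet protein gene, had 6.15, 7.25 and 5.34 CPM in fasted brains, against 11.5, 10.7 and 15.8 CPM in sated brains (log2 fold change -1.04, edgeR adjusted p = 0.0825). Fasted samples were all higher for ACC and all lower for Lsd-1 and Jabba.

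Of 21 genes tested for lipases and lipid droplets, 1 rose (0.223% of all transcripts). Of the 21, 4 lay above (7.16%) and 1 below (7.87%) the sated samples, and the median was 0.03. CG5966, a lipase gene that the study's text names, had 23.5, 26.99 and 12.6 CPM in fasted brains, against 7.795, 4.04 and 24.9 CPM in sated brains, with sated 3 above fasted 1 and fasted 3 (log2 fold change 0.69, edgeR adjusted p = 0.711). The glycerolipid enzyme mino, a glycerol-3-phosphate acyltransferase, had 74.6, 76.1 and 71.3 CPM in fasted brains, against 59.96, 54.8 and 59.7 CPM in sated brains (log2 fold change 0.34, edgeR adjusted p = 0.0775), and Npc2a, a sterol carrier, had 23.1, 23.8 and 22.5 CPM in fasted brains, against 32.98, 32.3 and 30.6 CPM in sated brains (log2 fold change -0.47, edgeR adjusted p = 0.0556). CG3376, which is predicted to encode an acid sphingomyelinase, rose, with 37.3, 41.3 and 38.7 CPM in fasted brains, against 23.7, 23.4 and 25.3 CPM in sated brains. It was among the genes least touched by leaving out a library (log2 fold change 0.69, SE 0.08, edgeR adjusted p = 0.0103; up to 0.0995).

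Transporters changed in both directions. CG7888, a predicted amino acid transporter (chr3L:11054035-11059659, plus strand), had 371, 403 and 372 CPM in fasted brains, against 282, 308 and 293 CPM in sated brains. It rose by a small fold in a high-level transcript (log2 fold change 0.38, SE 0.047, edgeR adjusted p = 0.0125; up to 0.151). Picot, a phosphate cotransporter, had 198, 202 and 191 CPM in fasted brains, against 148, 161 and 151 CPM in sated brains. It rose likewise (log2 fold change 0.36, SE 0.046, edgeR adjusted p = 0.0148; up to 0.171). MFS9, a member of the major facilitator superfamily (chr3R:20507392-20512468, minus strand), had 9.51, 8.66 and 7.75 CPM in fasted brains, against 21.1, 17.6 and 17.7 CPM in sated brains. It fell by a fold of 2.19, and its lowest sated sample was far above its highest fasted one (log2 fold change -1.13, SE 0.14, edgeR adjusted p = 0.0125; up to 0.151).

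Of 29 transporter genes tested, 2 rose (0.223% of all transcripts) and 1 fell (0.0447%). Of the 29, 4 lay above (7.16%) and 5 below (7.87%) the sated samples. The median was -0.018, while DESeq2 called 3 higher and 5 lower. CG6978 had 34.9, 25.4 and 23.5 CPM in fasted brains, against 16.9, 20.2 and 14.1 CPM in sated brains (log2 fold change 0.71, edgeR adjusted p = 0.168), and CG3036 had 42.9, 53.2 and 52.8 CPM in fasted brains, against 23.2, 37.6 and 42.3 CPM in sated brains (log2 fold change 0.53, edgeR adjusted p = 0.386); the study's text names both, with Picot and CG7888, from these samples. Lower in each fasted sample were kumpel, with 108, 99.5 and 114 CPM in fasted brains, against 121, 126 and 138 CPM in sated brains (log2 fold change -0.26, edgeR adjusted p = 0.211), and the amino acid transporter sbm, with 172, 164 and 190.3 CPM in fasted brains, against 208, 204 and 212 CPM in sated brains (log2 fold change -0.24, edgeR adjusted p = 0.125). For pippin, fasted levels were 25.9, 18.9 and 19.4, against 47.97, 25.3 and 44.97 in sated brains, with sated 2 just below fasted 1 (log2 fold change -0.90, edgeR adjusted p = 0.173).

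Of the listed nuclear genes for mitochondrial oxidative phosphorylation, 1 rose, against the direction of nearly all others. It was the only assembly factor in the list, which otherwise held subunit genes and cytochrome c. The list was written with earlier results of these data known. Sirup, an assembly factor of succinate dehydrogenase whose name stands for its induction by starvation (chr2L:7998869-7999676, plus strand), had 103, 90.2 and 87.5 CPM in fasted brains, against 56.97, 56.96 and 56.8 CPM in sated brains. Its sated samples were almost identical (log2 fold change 0.72, SE 0.073, edgeR adjusted p = 0.00392; up to 0.0639). Of the 50 genes tested, 1 rose (0.223% of all transcripts) and none fell, where only 0.0447% of all transcripts did. Of the 50, 14 lay below the sated samples (7.87%) and Sirup alone lay above them (7.16%), and 44 were below 0. The median was -0.10, with a spread between samples of 0.019, and it stayed between -0.12 and -0.09 with DESeq2, RLE normalization, the replicate number as a block or any 1 library left out. Unadjusted p was under 0.05 for 12 of the lower genes, and DESeq2 called 2.

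The lower genes came from several complexes, each with a small fold. Cyt-c-p, the cytochrome c gene, had 116, 120.4 and 109.9 CPM in fasted brains, against 147, 136 and 130.0 CPM in sated brains (log2 fold change -0.25, edgeR adjusted p = 0.155). The ATP synthase genes ATPsynC and ATPsynbeta had 544, 518 and 611 CPM in fasted brains, against 631, 618 and 663 CPM in sated brains, and 600.0, 555 and 577 CPM in fasted brains, against 649, 630.2 and 612 CPM in sated brains (edgeR adjusted p = 0.298 and edgeR adjusted p = 0.32). COX4, of cytochrome oxidase, had 132, 134 and 124 CPM in fasted brains, against 154, 146 and 137 CPM in sated brains (log2 fold change -0.16, edgeR adjusted p = 0.369). In all 4, each fasted sample was lower than each sated one. Of 14 transcripts of the mitochondrial genome tested, none passed, none was separated between groups, none had p under 0.05 and DESeq2 called none, while 3 were above 0. Their median was -0.025 with a wide spread between samples of 0.12, so that a shift as small as that of the nuclear genes was not detectable in them, and their summed level overlapped, with 43400 to 52737 CPM in fasted brains and 45708 to 56121 CPM in sated brains.

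Genes of ribosome assembly rose in 2 cases. LTV1, a factor for the small subunit, had 197, 206 and 197 CPM in fasted brains, against 162, 166 and 165 CPM in sated brains. Non1, a nucleolar GTPase for the large subunit, had 184, 191 and 173 CPM in fasted brains, against 123.4, 138 and 142 CPM in sated brains. Groups were well apart for both, by small folds (LTV1: log2 fold change 0.28, SE 0.04, edgeR adjusted p = 0.0211, up to 0.181; Non1: log2 fold change 0.44, SE 0.062, edgeR adjusted p = 0.0211, up to 0.16). Of 34 genes tested for ribosome biogenesis, these 2 rose (0.223% of all transcripts). Of the 34, 6 lay above (7.16%) and 2 below (7.87%) the sated samples, and the median was 0.0013.

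No gene of translation passed, where only 0.268% of all transcripts did. Of 79 cytosolic ribosomal protein genes, 12 lay above the sated samples (7.16% of all transcripts) and none below, and 66 were above 0, with a median of 0.05 and a spread between samples of 0.022. Unadjusted p was under 0.05 for 8, all higher, and DESeq2 called none. RpL23 had 188, 187 and 188 CPM in fasted brains, against 173, 173 and 162 CPM in sated brains (log2 fold change 0.15, edgeR adjusted p = 0.238), and RpL4 had 446, 458 and 459 CPM in fasted brains, against 426, 412 and 423 CPM in sated brains (log2 fold change 0.11, edgeR adjusted p = 0.261). Of 39 translation factors and tRNA synthetases, 11 lay above (7.16% of all transcripts) and 2 below (7.87%). Unadjusted p was under 0.05 for 10 higher and 1 lower, and DESeq2 called 3, all higher. The elongation factor gene eEF2 had 1057, 1092 and 1082 CPM in fasted brains, against 966, 949 and 960.2 CPM in sated brains (log2 fold change 0.17, edgeR adjusted p = 0.0702), and eIF3a, of initiation factor 3, had 187, 184 and 190.2 CPM in fasted brains, against 162, 156 and 168 CPM in sated brains (log2 fold change 0.21, edgeR adjusted p = 0.099).

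None of the 23 genes tested for amino acid stress and the unfolded protein response, a list of chaperones and stress regulators, passed. Of all transcripts, 0.268% did. Of these, 3 lay above the sated samples (7.16% of all transcripts) and 7 below (7.87%), and the median was -0.09. Unadjusted p was under 0.05 for 3 higher and 6 lower genes, and DESeq2 called 2, both lower. Hsc70-3, the chaperone BiP of the endoplasmic reticulum, had 267, 248 and 259.8 CPM in fasted brains, against 302, 293 and 312 CPM in sated brains (log2 fold change -0.23, edgeR adjusted p = 0.0699). Hsc70-4, its cytosolic relative, had 692, 757 and 682 CPM in fasted brains, against 790.2, 889.7 and 835 CPM in sated brains (log2 fold change -0.24, edgeR adjusted p = 0.119), and Hsp83, the fly's Hsp90, had 938, 918 and 792 CPM in fasted brains, against 1009, 1457 and 1075 CPM in sated brains (log2 fold change -0.42, edgeR adjusted p = 0.271). Sated 2 was the highest sample for both. Gcn2, the kinase that senses missing amino acids, had 64.3, 72.3 and 68.6 CPM in fasted brains, against 58.3, 60.6 and 63.01 CPM in sated brains, with fasted samples higher (log2 fold change 0.17, edgeR adjusted p = 0.444).

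Among detoxification and antioxidant genes, 2 of 34 rose (0.223% of all transcripts) and none fell. Of the 34, 8 lay above (7.16%) and 7 below (7.87%) the sated samples, and the median was 0.014. Cyp28d1, a cytochrome P450 (chr2L:5210460-5212445, plus strand), had 189, 175 and 172 CPM in fasted brains, against 107, 116 and 119.7 CPM in sated brains. Groups were far apart (log2 fold change 0.64, SE 0.056, edgeR adjusted p = 0.00141; at most 0.0202). Irc, an immune-regulated catalase (chr3R:17002875-17007208, plus strand), had 254, 289.6 and 234 CPM in fasted brains, against 187, 179 and 199.8 CPM in sated brains. It passed by the smallest margin of the 24 (log2 fold change 0.45, SE 0.074, edgeR adjusted p = 0.0486; up to 0.31). Cyp6g1, a P450 known for insecticide resistance, had 16.8, 14.7 and 10.9 CPM in fasted brains, against 5.55, 5.098 and 7.11 CPM in sated brains (log2 fold change 1.23, edgeR adjusted p = 0.0556). Other antioxidant genes lay on either side: Cat, the main catalase, had 62.7, 60.6 and 56.03 CPM in fasted brains, against 50.1, 46.9 and 51.7 CPM in sated brains (log2 fold change 0.27, edgeR adjusted p = 0.233), and Prx2, a peroxiredoxin, had 62.7, 56.4 and 65.6 CPM in fasted brains, against 76.3, 75.9 and 74.6 CPM in sated brains (log2 fold change -0.29, edgeR adjusted p = 0.149).

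The last 3 genes that passed were, like Sodh1 and CG3376, in none of the lists. CG13607 (chr3R:24114043-24116322, minus strand) fell, with 2.05, 2.42 and 1.78 CPM in fasted brains, against 8.84, 7.56 and 6.99 CPM in sated brains. It was low in all fasted samples, at about 2 CPM (log2 fold change -1.91, SE 0.25, edgeR adjusted p = 0.0148; up to 0.172). CG9119 (chr3L:1203316-1204795, minus strand) rose, with 15.5, 11.3 and 9.53 CPM in fasted brains, against 4.35, 4.04 and 2.41 CPM in sated brains (log2 fold change 1.75, SE 0.27, edgeR adjusted p = 0.036; up to 0.186). The gene atk (chr3L:20454690-20464862, minus strand) encodes a leucine-rich repeat protein of ciliated sensory organs, and rose, with 8.95, 6.44 and 9.53 CPM in fasted brains, against 2.55, 1.23 and 2.54 CPM in sated brains (log2 fold change 1.95, SE 0.30, edgeR adjusted p = 0.036; up to 0.194). Fasted samples of both lay more than 2 times above the highest sated one.

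No gene of neuronal signalling passed, but only 0.268% of all transcripts did, so that little follows for lists of this size. The list of neuropeptide genes also holds a receptor gene, SPR. Of 31 genes tested in it, 1 lay above and 8 below the sated samples (7.87% of all transcripts), 20 were below 0, and the median was -0.09. Unadjusted p was under 0.05 for 7, all lower, and DESeq2 called 2, both lower. After Ilp5, the smallest p was that of Capa, the capability peptide precursor, with 34.3, 29.4 and 35.8 CPM in fasted brains, against 47.1, 41.8 and 46.7 CPM in sated brains (log2 fold change -0.44, edgeR adjusted p = 0.103). Proc, the proctolin precursor, had 71.4, 65.1 and 76.4 CPM in fasted brains, against 90.5, 81.6 and 88.5 CPM in sated brains (log2 fold change -0.29, edgeR adjusted p = 0.199). Lk, the leucokinin precursor, had 5.22, 6.85 and 7.24 CPM in fasted brains, against 10.5, 10.5 and 9.27 CPM in sated brains (log2 fold change -0.64, edgeR adjusted p = 0.251). Peptides known to act in hunger overlapped between groups, with log2 fold changes of -0.061 for sNPF, -0.14 for NPF and 0.085 for Akh (edgeR adjusted p = 0.709, edgeR adjusted p = 0.709 and edgeR adjusted p = 0.962). Akh varied widely within groups, with 84.5, 39.7 and 27.9 CPM in fasted brains, against 58.3, 32.2 and 49.9 CPM in sated brains.

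For amine synthesis and receptors, none of 28 passed, 2 lay above (7.16% of all transcripts) and 5 below (7.87%). Unadjusted p was under 0.05 for 1 higher and 4 lower, while DESeq2 called 1 lower. That was Octbeta2R, an octopamine receptor, with 189, 195 and 189 CPM in fasted brains, against 227, 241 and 211 CPM in sated brains (log2 fold change -0.24, edgeR adjusted p = 0.104). Hn, the phenylalanine hydroxylase that starts amine synthesis, had 22.6, 14.9 and 16.4 CPM in fasted brains, against 9.59, 9.67 and 14.6 CPM in sated brains, with sated 3 just below the lowest fasted sample (log2 fold change 0.65, edgeR adjusted p = 0.331). Of 17 clock genes none passed, 3 lay above and 1 below, and 3 higher and 1 lower had p under 0.05. DESeq2 called vri, a clock repressor, which had 41.2, 45.5 and 40.7 CPM in fasted brains, against 32.5, 25.8 and 33.8 CPM in sated brains (log2 fold change 0.46, edgeR adjusted p = 0.138); tim had 48.9, 49.9 and 53.7 CPM in fasted brains, against 44.4, 41.3 and 46.4 CPM in sated brains (log2 fold change 0.21, edgeR adjusted p = 0.4).

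**Figure D4:**
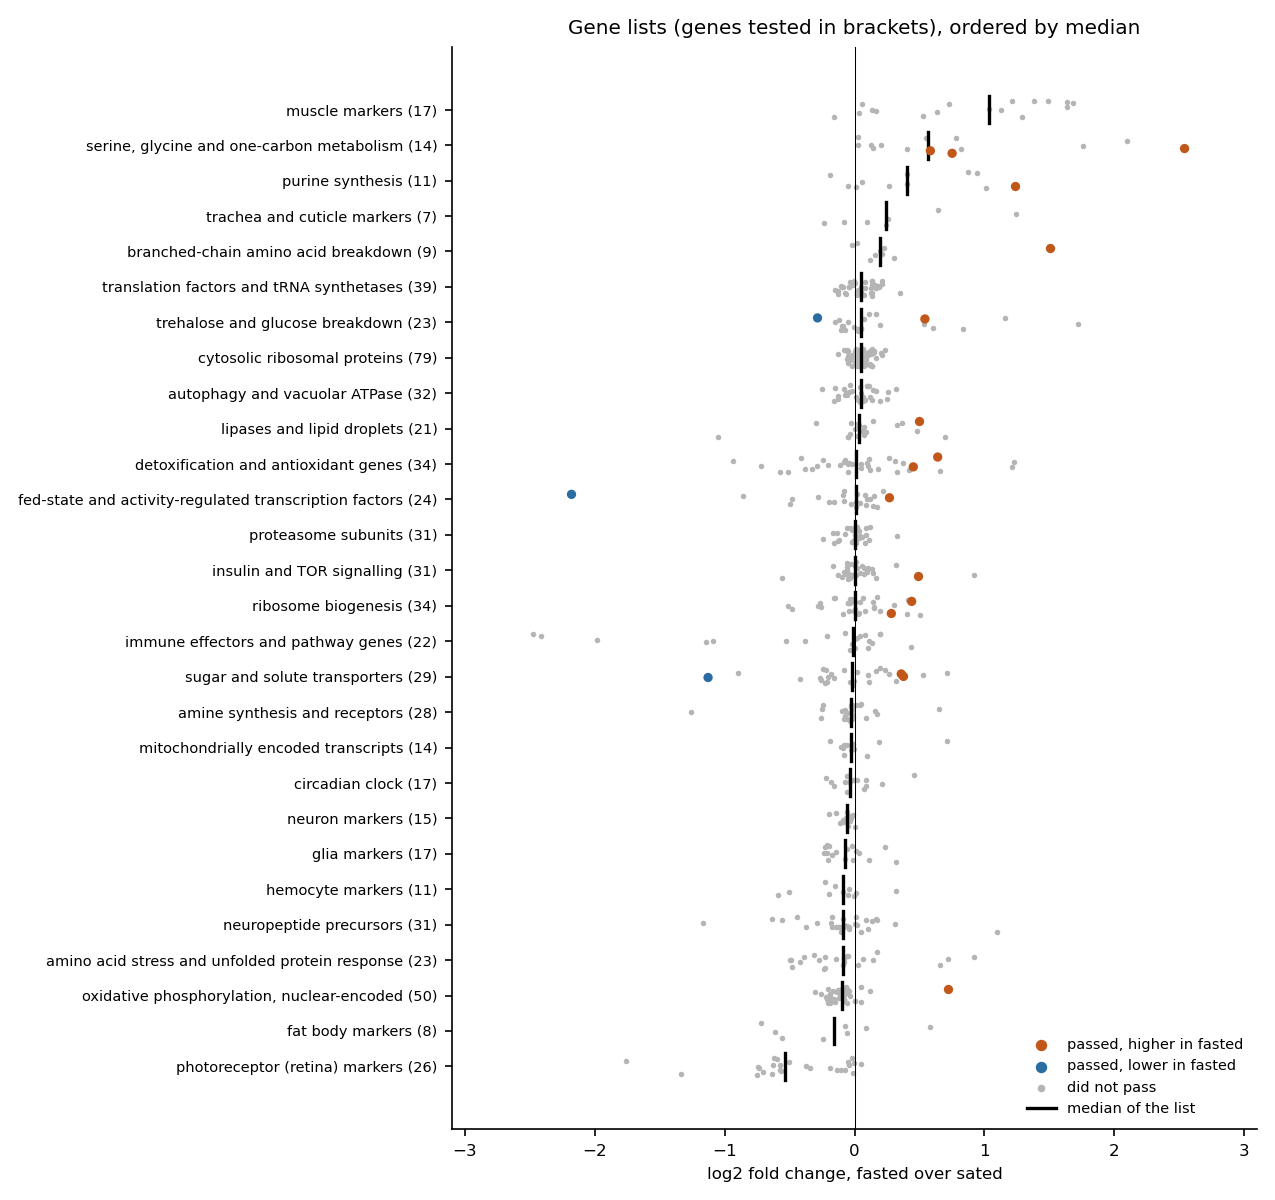
Log2 fold change of fasted over sated brains for each gene tested of the 28 lists, with genes that passed in colour and a bar at each list's median. Medians of most lists lie within 0.2 of 0, those of the serine and purine lists are at 0.57 and 0.41, and those of muscle and photoreceptor markers at 1.04 and -0.53.

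Protein breakdown, autophagy and immunity held no gene that passed, where only 0.268% of all transcripts did. Of 31 proteasome genes, 1 lay below the sated samples (7.87% of all transcripts) and none above (7.16%), 1 had p under 0.05, and DESeq2 called none. Of 32 genes of autophagy and the vacuolar ATPase, 5 lay above and 4 below, 3 higher and 4 lower had p under 0.05, and DESeq2 called none. The autophagy genes Atg2 and Atg13 had 119, 115.4 and 116 CPM in fasted brains, against 106, 94.1 and 106 CPM in sated brains, and 37.1, 40.9 and 37.2 CPM in fasted brains, against 32.7, 28.5 and 34.6 CPM in sated brains (edgeR adjusted p = 0.306 and edgeR adjusted p = 0.387), with fasted samples higher. The proton pump gene Vha26 had 408, 391 and 441 CPM in fasted brains, against 473, 451 and 453 CPM in sated brains (log2 fold change -0.15, edgeR adjusted p = 0.309), with fasted samples lower. Of 22 immune genes, 4 lay below and none above, 6 had p under 0.05, all lower, and DESeq2 called none. PGRP-SB1, a peptidoglycan recognition gene, had 1.87, 1.21 and 0.508 CPM in fasted brains, against 2.698, 4.22 and 6.61 CPM in sated brains (log2 fold change -1.98, edgeR adjusted p = 0.199), and the antibacterial peptide gene AttC had 5.97, 0.201 and 0.254 CPM in fasted brains, against 3.898, 8.79 and 19.3 CPM in sated brains, with overlap (log2 fold change -2.42, edgeR adjusted p = 0.407).

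Markers of tissues beside the brain differed between samples, and their part in the results above was not tested. Whether the brain's own cells express some of them was not tested either, so that a sum is not a measure of attached tissue alone. Photoreceptor genes were lower in fasted brains by their sum, with 4411, 4040 and 4960 CPM in fasted and 5274, 5353 and 5361 CPM in sated brains. Of 31 such genes, 26 were tested and none passed (0.268% of all transcripts). Of the 26, 9 lay below the sated samples (7.87%) and none above (7.16%), and 25 were below 0. Their median of -0.53 stayed between -0.61 and -0.31 under DESeq2, RLE normalization, the block and each library left out. Unadjusted p was under 0.05 for 13, all lower, beside 452 lower of all 8957 transcripts, and DESeq2 called 2. The light-gated channel genes trp and trpl had 36.9, 30.01 and 52.98 CPM in fasted brains, against 64.01, 68.03 and 71.01 CPM in sated brains, and 71.6, 41.3 and 90.96 CPM in fasted brains, against 105, 131 and 111 CPM in sated brains (edgeR adjusted p = 0.117 and edgeR adjusted p = 0.261). The phospholipase C gene norpA had 751, 733 and 769.8 CPM in fasted brains, against 856, 897 and 815 CPM in sated brains (log2 fold change -0.19, edgeR adjusted p = 0.117). The main rhodopsin gene, ninaE, which marks the outer photoreceptors of the compound eye, went its own way, with 8.02, 108 and 12.3 CPM in fasted brains, against 5.097, 294 and 18.5 CPM in sated brains: it was high in replicate 2 of each group. Rh2, the rhodopsin of the simple eyes, had 295, 146 and 445 CPM in fasted brains, against 494, 289 and 540.4 CPM in sated brains.

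Fat body genes were few. Of 23 matched, 8 were tested, the larval serum protein gene Lsp1alpha and Fbp2 had no count in any of the 6 samples, and the yolk protein genes were too low to test. Their summed level, 2334, 2151 and 2042 CPM in fasted and 2961, 2464 and 3206 CPM in sated brains, was mostly that of apolpp, the lipoprotein that carries lipid between tissues. It had 1498, 1362 and 1226 CPM in fasted brains, against 2155, 1719 and 2373 CPM in sated brains and did not pass (log2 fold change -0.61, edgeR adjusted p = 0.0623). None of the 8 passed, 1 higher and 1 lower had p under 0.05, and DESeq2 called 1, apolpp.

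Muscle genes were high in fasted 2 alone. None of 17 tested passed, had p under 0.05 or was called by DESeq2, and their median was 1.04, against -0.29 without fasted 2. The giant muscle protein gene sls had 55.6, 411 and 34.2 CPM in fasted brains, against 53.8, 38.3 and 63.6 CPM in sated brains (log2 fold change 1.63, edgeR adjusted p = 0.544), so that its fold rested on that library. Trachea and cuticle genes summed to 165 CPM in fasted 2 and to 85.5 to 101 CPM in the other samples, and none of 7 passed, had p under 0.05 or was called by DESeq2. Hemocyte genes overlapped, with sums of 1203, 1021 and 1150 CPM in fasted and 1326, 1133 and 1484 CPM in sated brains; none of 11 passed, 2 lower had p under 0.05, and DESeq2 called none.

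Among markers of the brain's own cells, medians were slightly below 0. Of 17 glial genes none passed, 1 lay above (7.16% of all transcripts) and 4 below (7.87%). Unadjusted p was under 0.05 for 1 higher and 5 lower, and DESeq2 called 2 lower. The glial sodium pump subunit gene nrv2 had 726, 787 and 743 CPM in fasted brains, against 850.3, 900.2 and 850.0 CPM in sated brains (log2 fold change -0.20, edgeR adjusted p = 0.093). Of 15 neuronal genes none passed, 5 lay below and none above, 3 lower had p under 0.05, and DESeq2 called 1 lower. VGAT, the vesicular GABA transporter gene, had 131, 130.3 and 145 CPM in fasted brains, against 158, 155 and 152 CPM in sated brains (log2 fold change -0.19, edgeR adjusted p = 0.211). The list medians were -0.07 for glia and -0.06 for neurons, beside a spread between samples of 0.033 and 0.035, and both stayed below 0 under DESeq2, RLE normalization, the block and each library left out.

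**Figure D5:**
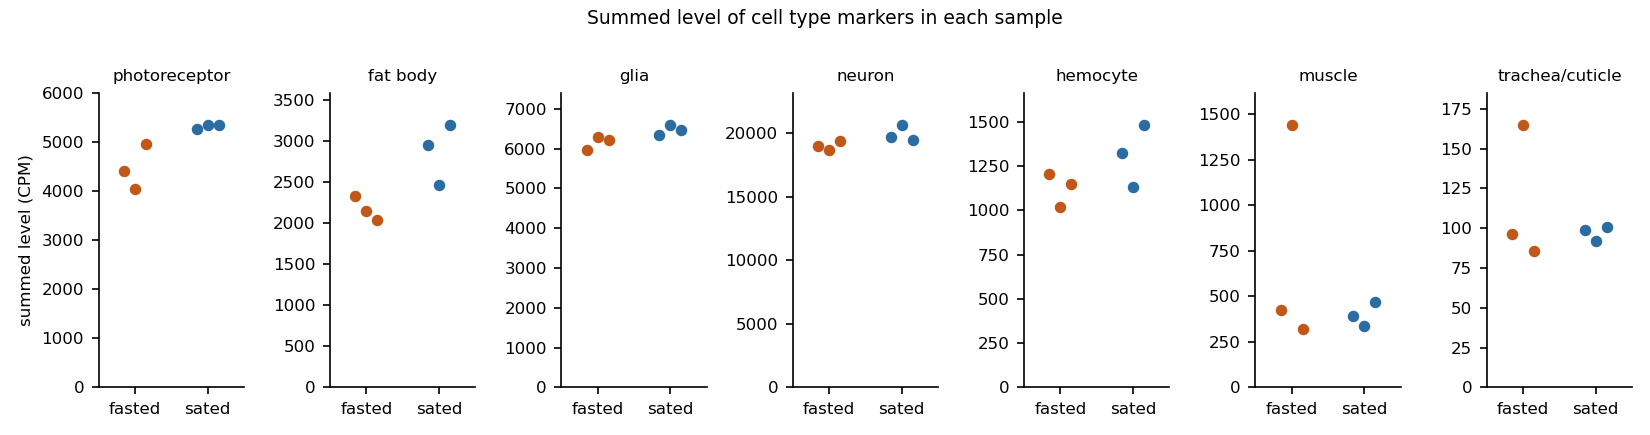
Summed level in CPM of the marker genes of 7 cell types or tissues in each fasted (left) and sated (right) sample, with each axis starting at 0. Photoreceptor, fat body, glial and neuronal sums are lower in all fasted samples, and fasted 2 stands out for muscle, with 1444 CPM, and for trachea and cuticle, with 165 CPM.

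Genes just beyond the threshold showed as many decreases as increases. With an adjusted p between 0.05 and 0.1 there were 19 higher and 19 lower transcripts. By p, the first of these was CG14186, with 254, 223 and 252 CPM in fasted brains, against 390.4, 391 and 301 CPM in sated brains (log2 fold change -0.56, edgeR adjusted p = 0.0556). Others with no overlap were Sirt1, the NAD-dependent deacetylase, with 178, 179 and 180.3 CPM in fasted brains, against 211, 214 and 199.8 CPM in sated brains (log2 fold change -0.22, edgeR adjusted p = 0.0775), the metalloprotease gene Invadolysin, with 253, 247 and 249 CPM in fasted brains, against 280.5, 287 and 282 CPM in sated brains (log2 fold change -0.18, edgeR adjusted p = 0.0702), and the tubulin gene betaTub56D, with 309, 311 and 314 CPM in fasted brains, against 352, 355 and 344 CPM in sated brains (log2 fold change -0.17, edgeR adjusted p = 0.0775). In each of these, all fasted samples were lower. DESeq2 called all of them.

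In refed brains, the mean level was nearer to that of fasted brains for 15 of the 24 genes that passed and nearer to that of sated brains for 9. Treh had 1028, 1038 and 1014 CPM in fasted, 1004, 887 and 1034 CPM in refed and 710.3, 724 and 684 CPM in sated brains, so that refed samples were near the fasted ones. The serine gene aay had 71.2, 60.8 and 69.1 CPM in fasted, 49.1, 37.7 and 43.5 CPM in refed and 42.1, 46.4 and 45.99 CPM in sated brains, so that refed samples were near the sated ones, and Bcat likewise had 13.6, 9.33 and 11.5 CPM in refed brains. Hr38 lay between, with 103, 92.6 and 86.01 CPM in refed brains. CG13607 was higher in refed brains than in both other groups, with 18.3, 12.9 and 10.8 CPM. A test of refed against sated brains uses the same sated samples, so the 2 comparisons are not independent. With edgeR, 16 of 8931 transcripts passed it (0.179%), and among the 24 these were Treh (log2 fold change of refed over sated 0.46, edgeR adjusted p = 0.0233), Hr38 (-1.31, edgeR adjusted p = 0.0158), Sirup (0.78, edgeR adjusted p = 0.00223) and Non1 (0.37, edgeR adjusted p = 0.0473). The values for aay (-0.049, edgeR adjusted p = 0.876), Bcat (0.16, edgeR adjusted p = 0.758) and CG13607 (0.85, edgeR adjusted p = 0.138) did not pass.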

How the data were processed

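RNA from central brains was ribosome-depleted and sequenced by the authors. Per the labels, processing used STAR, SAMtools 1.4, HTSeq and DESeq2 1.18.0 on the BDGP6 build, and the STAR version and annotation are not given in the sources used here. The deposited files hold whole-number counts for 17489 genes, unstranded and by strand, not normalized. The gene-strand counts were used here. Reads not counted on a gene, 42.5% to 60.3% of a fasted table and 43.4% to 54.2% of a sated one, stayed out of library sizes and tests.

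Counts were filtered with filterByExpr, scaled by TMM and tested with edgeR 4.0.16 in R 4.3.3 (quasi-likelihood test on the 6 samples, Benjamini-Hochberg adjustment over 8957 genes, threshold 0.05). The SE of a log2 fold change was back-calculated as its size over the root of the F statistic. CPM levels use TMM over all 9 samples. Refed and sated samples were tested the same way, a comparison added after the data were seen. DESeq2 1.42.0 was the main alternative, with other scalings, filters and sample sets. The procedure was tested on simulated data. Pools of 10 brains dissected on 1 day were the replicates, so p-values measure the spread between pools. The labels describe 4 replicates per group, and 3 per group were analysed here.

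Groups came from the labels. The 28 gene lists hold 804 entries, 794 of which matched a gene, and some genes are in more than 1 list. Lists and genes to name were chosen with earlier results of these data known, and spellings of list genes were corrected after the files were opened. Genes were named by rule: all that passed, up to 25 more by p with separate groups, up to 4 of smallest p in each list, and genes the study's text names; further list members are named for their role. Of the gene IDs, 17215 were found in Ensembl release 115, from which coordinates on BDGP6 come, and 88 were named from the study's tables. Low counts limit precision for weakly expressed genes, and as no molecular identifiers are described, read numbers may overstate the molecules behind them.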

Additional observations from a re-analysis of the deposited data

How the results depend on the processing

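The number of transcripts that passed depended on the settings. It was 112 with DESeq2 (59 higher and 53 lower in fasted brains), 75 without a filter on low counts (42 and 33), 65 with robust empirical Bayes (42 and 23), 55 with unstranded counts (41 and 14), 65 with each library's opposite-strand share as covariate (35 and 30) and 82 without genes that had more opposite-strand than own-strand counts (52 and 30). With sated 1 and 3 against fasted 3, the libraries with low opposite-strand shares, it was 204 (66 and 138), a fit that assumes the lone fasted sample to vary like the sated ones. With 1 library left out it was between 5 and 30, with 4 to 21 higher and 1 to 9 lower. RLE and upper-quartile normalization, 10 counts in every sample, all 9 samples in 1 fit and scaling without genes of other tissues gave 21 to 26. All 24 kept their direction in every setting that tested them.

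With the replicate number as a block, 72 passed (37 higher and 35 lower), all 24 among them. The deviations of same-numbered samples from their group means correlated by -0.046, 0.37 and 0.38 for replicates 1, 2 and 3. The values for replicates 2 and 3 were the highest of all pairs of a fasted and a sated sample. Fasted 1, however, correlated best with sated 2, by 0.27. Whether the numbers pair the samples was thus not settled, and the block was kept as an alternative.

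Among the named genes whose direction was followed over the settings, signs reversed for 5, none of which had passed. Genes given above by level alone, with neither fold change nor adjusted p, such as foxo and BckdhB, were not followed. Akh went to -0.12 with the covariate and -0.94 with sated 1 and 3 against fasted 3, and ranged from -0.49 to 0.41 with 1 library left out. Ilp2 went to -0.011 with the covariate and ranged from -0.070 to 0.076, and Sam-S ranged from -0.017 to 0.10. With sated 1 and 3 against fasted 3, CG5966 went to -0.41 and sls to -0.78, and sls ranged from -0.25 to 2.15 with 1 library left out. The causes were not tested. Low depth limits genes of a few CPM, such as Sardh, atk and CG13607.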

Other observations

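Large differences were found for few transcripts. Of the 8957 tested, 185 had a log2 fold change of more than 1 in either direction, and the groups did not overlap for 52 of these. The following genes, Lst and BNIP3 from outside the lists and Ldh from the list for trehalose and glucose breakdown, were chosen after their values were seen. Lst, which encodes limostatin, a hormone that holds back insulin release, had 7.46, 7.25 and 10.04 CPM in fasted brains, against 2.998, 4.39 and 3.94 CPM in sated brains (log2 fold change 1.14, edgeR adjusted p = 0.103). Its refed samples had 2.596, 1.58 and 2.33 CPM. BNIP3, a gene for the removal of mitochondria by autophagy, had 105, 118 and 95.7 CPM in fasted brains, against 82.8, 74.9 and 83.1 CPM in sated brains (log2 fold change 0.40, edgeR adjusted p = 0.0997). All fasted samples were higher for both genes, neither passed with edgeR, and DESeq2 called both. Ldh, the lactate dehydrogenase, had 2.61, 27.4 and 8.004 CPM in fasted brains, against 4.497, 4.04 and 2.79 CPM in sated brains (log2 fold change 1.72, edgeR adjusted p = 0.438), and fasted 2, the library with high muscle genes, was its highest sample.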
